A study of Homo sapiens with 18 samples.

Results

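RNA-seq of purified mRNA was used to compare both clonal PCIF1 knockout lines of MEL624, an established human melanoma cell line, with their control line. The control cells are wild type and received a random sgRNA, and the clones are called KO1 and KO2. All 3 lines grew in DMEM with 10% FBS, and each gave 3 replicates, A to C, that the design text calls biological. Of the 18 libraries of the series, these 9 are the inputs of an m6A immunoprecipitation, and the 9 immunoprecipitated libraries are not analysed here. The deposited values are log2 TPM, transcript abundances per gene length that sum to 1000000 in a library. Of 15258 listed genes, 14512 averaged 1 TPM or more over the 9 libraries, and among them those were taken in which all 6 knockout values lay on the same side of all 3 control values. There were 3534 such genes, 1894 higher in the knockout clones (13.1% of the genes tested) and 1640 lower (11.3%). Each knockout line is 1 clone, set against 1 control line. P-values here rest on how far libraries from one line differ, and lines edited independently could differ more. A trait of this control line cannot be told apart from one that both clones share.

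PCIF1 methylates the base nitrogen of the first transcribed nucleotide of an mRNA when that nucleotide is an adenosine next to the cap, which gives the modified base m6Am. Other enzymes place m6A inside mRNAs, and cap methyltransferases prepare the cap and its ribose before PCIF1 can act. The mark is common on cellular mRNAs that start with A, and its effects on mRNA stability and translation are debated in the field.

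In the comparison of both clones with control, the differences ranged from small shifts of many genes to a few genes that were read in the clones or in the control line only. The median absolute log2 fold change of the 3534 genes, taken as the mean of KO1 and KO2 against control, was 0.39, beside 0.16 over all genes tested. Without regard to the rule, the median signed change of all genes was 0.03. Both clones differed from control by at least 1 on the log2 scale in the same direction for 166 of the higher and 147 of the lower genes, and by at least 3 for 35 and 20. A moderated linear model (limma, with Benjamini-Hochberg adjustment over all 14512 genes) called 2807 genes higher (19.3%) and 2180 lower (15.0%) at an adjusted p under 0.05. These calls included 1742 of the 1894 higher and 1503 of the 1640 lower genes. Both criteria read the same values, so they are not independent of each other. Higher genes were 56.3% of the calls here and 45.9% with limma-voom on the recovered reads, so the balance of higher and lower genes depends on the scaling. Read totals were 7848089 to 11393206 per library.

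PCIF1 itself (ENSG00000100982, chromosome 20, 45934683 to 45948023 in hg38) is not among the genes that passed, because its mRNA was lower in KO1 only. Its level was 55.2, 62.0 and 55.6 TPM in the control libraries, 24.7, 22.0 and 25.3 TPM in KO1 and 58.0, 64.7 and 58.1 TPM in KO2. All KO1 values lay below the control, and the KO2 values overlapped it. For the mean of both clones the log2 fold change was -0.60 (SE 0.0637, limma adjusted p = 8.06e-05). It lost its call when the 6 knockout libraries were fitted as one group (limma adjusted p = 0.284). An exact two-sided permutation test of 6 against 3 libraries gave p = 0.381 (smallest possible 0.0238). Since an edit need not lower the mRNA, these levels check neither the genotype nor the label of KO2.

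The labelled cell type was set against lineage markers. SOX10, TYR, TYRP1, DCT, PMEL, MLANA, S100B and KIT, which mark differentiated melanocytes, are not in the table, so these genes could not be followed here. Of 28 melanocyte lineage genes listed, 11 were tested. The melanocyte transcription factor gene MITF was at 36.0 to 38.3 TPM in control, 24.3 to 29.1 TPM in KO1 and 47.5 to 52.0 TPM in KO2, lower than control in one clone and higher in the other. AXL, a receptor kinase of dedifferentiated melanoma cells, was at 623 to 716 TPM in all 9 libraries. Of the markers of other cell types, 1 of 10 fibroblast, 4 of 11 endothelial, 3 of 11 epithelial, 1 of 12 immune and 4 of 9 Schwann cell markers were tested. PECAM1, CDH5 and VWF (endothelium), PTPRC (immune cells), EPCAM and CDH1 (epithelium) and DCN and COL1A2 (fibroblasts), which define such cells, are not in the table.

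The first transcribed base decides whether a transcript can carry m6Am, so windows around the annotated starts of 7 genes that passed are shown, 20 bases before the start and 9 after it, with the start base in capitals. They come from the RefSeq promoter table (GRCh38.p14), and the first 4 genes were higher and the last 3 lower in both clones. A start base in these windows is an annotation and was not measured.
MGMT: gggacagcccgcgcccctagAacgctttgc
PNMA8A: cgagcggcggtgcgggagccAgtgcgcagg
RELN: ggagcggggcgggcgctttcCcaggcctgg
MEOX2: tctcagagccatttccccctGaaagcagtt
AREG: gcaggtgcgcgccgccctacAgacgttcgc
TGFBI: gcccgggcggcggaggcgctCtcacttccc
CADM4: gcgcggggggcggggcgggcGgcgcgggcg
The windows lie at chr10:129467221-129467250 for MGMT, chr19:46471554-46471583 for PNMA8A, chr7:103989649-103989678 for RELN, chr7:15686674-15686703 for MEOX2, chr4:74445116-74445145 for AREG, chr5:136028968-136028997 for TGFBI and chr19:43639841-43639870 for CADM4. The windows of PNMA8A, RELN, MEOX2 and CADM4 are on the minus strand. Genes with a start at A, C or G thus stood on the higher side, and the same holds for the lower side.

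Over all genes tested, the share of starts at A in the genes that passed was close to that of all genes. With GENCODE 44 canonical transcripts, 45.0% of 14396 genes start with A, 46.1% of the higher genes and 46.6% of the lower genes. The median log2 fold change was 0.03 for the 6482 genes that start with A, 0.02 for the 1743 with C, 0.02 for the 5826 with G and 0.08 for the 345 with T. With the most upstream annotated start, the shares of A were 40.0%, 38.8% and 39.9%, and with RefSeq starts 45.4%, 46.7% and 45.9%. Among the genes at least 8-fold different in both clones (3 on the log2 scale), 45.7% of the 35 higher and 80% of the 20 lower genes start with A by canonical transcripts. With the most upstream start these shares were 37.1% and 55%, and with RefSeq starts 52.2% of 23 and 87.5% of 8 matched genes. Among genes with a difference of at least 1, A starts made up 46.9% of 162 higher and 59.9% of 147 lower genes by canonical transcripts, 42.6% and 44.9% by the most upstream start, and 53.5% of 99 and 57.1% of 91 by RefSeq. Among the lower genes of these smaller sets, the share of A was above that of all genes with each annotation, though its size varied. The same held for the higher genes with a difference of at least 1. For the higher genes at least 8-fold different, the share lay above or below that of all genes, depending on the annotation. These shares were not tested.

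Promoters with and without CpG dinucleotides were both present among the genes with the largest differences. For illustration, the 120 bases before the RefSeq start are given for 2 higher genes, MGMT and PNMA8A, and 2 lower genes, TGFBI and ABCC2, with each CG in capitals.
MGMT: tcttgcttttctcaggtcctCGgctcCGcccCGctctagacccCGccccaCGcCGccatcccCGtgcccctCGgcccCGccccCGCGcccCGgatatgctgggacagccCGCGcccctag
PNMA8A: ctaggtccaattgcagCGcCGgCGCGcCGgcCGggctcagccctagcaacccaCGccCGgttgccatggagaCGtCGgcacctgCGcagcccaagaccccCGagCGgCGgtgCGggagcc
TGFBI: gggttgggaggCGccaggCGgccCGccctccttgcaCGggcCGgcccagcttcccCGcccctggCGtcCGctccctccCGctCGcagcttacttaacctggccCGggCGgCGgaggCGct
ABCC2: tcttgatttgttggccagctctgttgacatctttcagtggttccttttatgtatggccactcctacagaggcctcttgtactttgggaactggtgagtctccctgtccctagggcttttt
They are chr10:129467121-129467240, chr19:46471564-46471683 (minus strand), chr5:136028868-136028987 and chr10:99782520-99782639. These stretches hold 14, 15, 14 and 0 CG. In the 300-base RefSeq promoters, from 250 bases before to 50 after a start, 8.44% of all 10316 matched genes held fewer than 10 CG. This share was 9.72% of 1389 higher and 11.1% of 1226 lower genes. Among genes with a difference of at least 1 on the log2 scale in both clones, it was 28.3% of 99 higher and 28.6% of 91 lower genes. DNA methylation was not measured.

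Several genes without a single read in the control line were clearly read in both clones. PNMA8A, a member of the paraneoplastic Ma antigen family (chromosome 19, 46466491 to 46471563), was at 17.4, 17.7 and 18.2 TPM in KO1 and 20.4, 19.8 and 23.1 TPM in KO2. It was at least 175-fold higher in KO1 and at least 213-fold higher in KO2 than the 3 reads over the control line that a count of 0 allows. MGMT, which removes alkyl groups from guanine in DNA and so counters alkylating drugs (chromosome 10, 129467190 to 129770983), was at 16, 16.1 and 15.4 TPM in KO1 and 19.5, 18.8 and 19.3 TPM in KO2. The 449 reads in KO1 and 517 in KO2 against 0 in control put it at least 149-fold and at least 186-fold higher. Neither gene showed a wide spread within a clone. MEOX2, a homeobox transcription factor gene of the mesoderm, had 188 and 211 reads in KO1 and KO2 and none in control, and was at least 62.6-fold and at least 75.8-fold higher. GLB1L2, a beta-galactosidase-like gene, was at least 116-fold and at least 75.8-fold higher.

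RELN, which encodes the secreted glycoprotein reelin that guides migrating neurons (chromosome 7, 103471381 to 103989658), had 3 reads in the control line. Its level was 16.7, 18.0 and 17.6 TPM in KO1 and 13.7, 13.5 and 13.4 TPM in KO2. The ratio of reads to control was 587 in KO1, with a 95% counting interval of 201 to 2851, and 464 in KO2, with one of 159 to 2254. ASS1, which makes argininosuccinate in arginine synthesis, was at 0.0322, 0.168 and 0.661 TPM in control, 12.5, 14.6 and 12.6 TPM in KO1 and 15.9, 12.7 and 14.1 TPM in KO2. The control values of ASS1 spread over a wide range, and the gene rose by 6.48 log2 units (SE 0.703, limma adjusted p = 9.06e-05). PDE3B, a phosphodiesterase of cyclic nucleotides, and CYP2R1, a vitamin D hydroxylase, lie next to each other on chromosome 11 (14643804 to 14872044 and 14877440 to 14892231). Both were without reads in control, PDE3B at least 42.3-fold and at least 63.6-fold higher and CYP2R1 at least 26.3-fold and at least 26.6-fold higher in KO1 and KO2. The zinc finger gene ZNF415, the phosphatase family gene MTMR8 and the long noncoding RNA gene MIR3667HG also had no control read. They were at least 17.6-fold, 14.6-fold and 37.9-fold higher in KO1 and at least 21.9-fold, 13.6-fold and 61.4-fold higher in KO2. ATP10A, a phospholipid flippase gene with 1 control read, had a ratio of reads to control of 189 in KO1, with an interval of 33.5 to 7491, and of 87.3 in KO2, with one of 15.2 to 3488.

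The reverse pattern was present as well. COBL, whose protein nucleates actin filaments (chromosome 7, 51016212 to 51316818), was at 5.84, 5.93 and 5.38 TPM in control and had no read in either clone, against 677 in control. It was at least 226-fold lower in KO1 and at least 210-fold lower in KO2. FAM111B, which encodes a nuclear protease, was at 11.1, 11.7 and 10.3 TPM in control and without reads in both clones, at least 117-fold and at least 108-fold lower. Its neighbour FAM111A, a related gene, was at 33.5 to 34.6 TPM in control, 42.2 to 44.5 TPM in KO1 and 31.8 to 33.8 TPM in KO2, so the loss was not shared by the pair. NCAM1, the neural cell adhesion molecule, was at 3.58, 3.96 and 3.65 TPM in control, with 390 reads there, 1 in KO1 and 0 in KO2. It was 391-fold lower by reads in KO1 (95% counting interval 69.7 to 15469) and at least 121-fold lower in KO2. SPATA21, LINC00540 and ENSG00000258927 had no read in the clones and were at least 54.2-fold, 21.4-fold and 28.8-fold lower in KO2.

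TRBC2 and TRBC1, near-identical constant segments of the T cell receptor beta chain on chromosome 7, were abundant in the control line. TRBC2 was at 158, 147 and 161 TPM in control, at 0.133, 0.131 and 0.642 TPM in KO1 and at 1.17, 0.129 and 0.128 TPM in KO2. TRBC1 was at 23.6, 24.8 and 26.9 TPM in control and had no read in the clones. Reads may be split between these copies, so their single values are uncertain. The T cell genes CD3D, CD3E, CD3G and CD247 are not in the table, and the alpha chain segment TRAC was at 0.885 to 6.14 TPM in all 3 lines with overlapping values. On chromosome 18, POTEC (14507339 to 14543600), a member of a family of close copies, was at 52, 46.5 and 44 TPM in control and at most 0.514 TPM in any clone library. Next to it, CXADRP3 (14477955 to 14499278), a transcribed pseudogene of the adenovirus receptor gene CXADR, was at 29.0, 29.5 and 21.4 TPM in control and at most 0.447 TPM in the clones. CXADR itself, on chromosome 21, was at 2.48 to 3.19 TPM in control, 0.0149 to 0.0748 TPM in KO1 and 0.0738 to 0.626 TPM in KO2, and reads of the pair could have been shared.

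**Figure D1:**
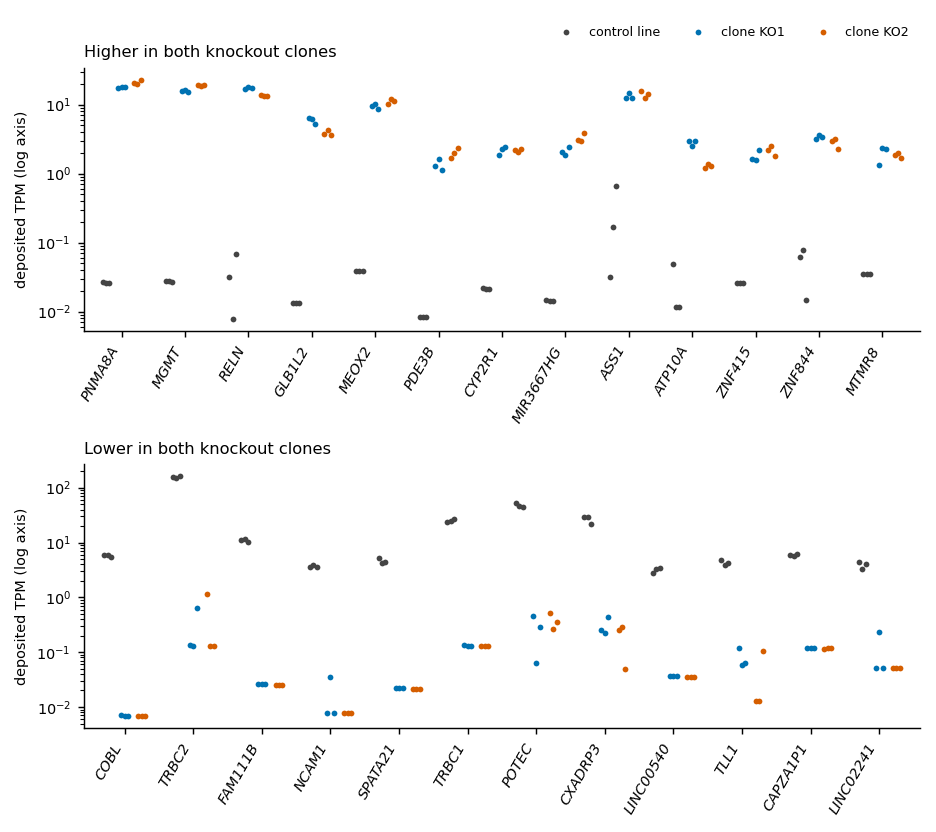
Deposited TPM on a log axis in each of the 9 libraries (points) for genes with the largest differences in both clones, higher above and lower below. Points without reads sit at the floor that the prior count of the deposited values sets, such as PNMA8A in control and COBL in KO1 and KO2. That no control point overlaps a clone point follows from the choice of genes.

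Next come the genes that averaged 20 TPM or more in control or in both clones. Among them SH3GL2, CPA3, BGN and NUP210 reached this level in the clones only. SH3GL2, which encodes the synaptic vesicle protein endophilin, was at 0.610, 0.502 and 0.894 TPM in control, 23.4, 24.6 and 22.5 TPM in KO1 and 28.7, 22.5 and 26.8 TPM in KO2. It rose by 5.25 log2 units (SE 0.163, limma adjusted p = 1.77e-08). CPA3, a carboxypeptidase known from mast cells, was at 1.71 to 3.05 TPM in control, 26.4 to 33.0 TPM in KO1 and 20.7 to 27.0 TPM in KO2. BGN, the matrix proteoglycan biglycan, was at 15.2, 14.3 and 14.4 TPM in control, 95.1, 89.4 and 97.0 TPM in KO1 and 64.9, 75 and 60.4 TPM in KO2. It rose by 2.43 (SE 0.0654, limma adjusted p = 6.93e-09). NUP210, a membrane protein of the nuclear pore, was at 12.6 to 12.7 TPM in control and 35.7 to 44.4 TPM in the clones and rose by 1.73 (SE 0.0583, limma adjusted p = 3.56e-08). That no clone value of these 4 genes overlaps control follows from the rule that picked them.

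Several long noncoding RNAs were among the genes with large rises. Such genes made up 8.92% of all higher genes and 9.58% of all genes tested. At a difference of at least 1 on the log2 scale in both clones, they made up 23.5% of 166 higher and 14.3% of 147 lower genes. At a difference of at least 3 the shares were 28.6% of 35 and 20% of 20. LINC01029 on chromosome 18 (77970637 to 77993731) was at 139, 134 and 138 TPM in control, 569, 541 and 555 TPM in KO1 and 696, 693 and 697 TPM in KO2. ENSG00000264334 lies inside it on the same strand and was at 95.5 to 111 TPM in control and 454 to 570 TPM in the clones, so the 2 values may rest on one transcript. LINC00665 on chromosome 19 was at 2.45, 2.50 and 2.46 TPM in control, 29.4, 31.5 and 30.5 TPM in KO1 and 22.2, 23.3 and 24.3 TPM in KO2, which is a rise of 3.43 log2 units (SE 0.0624, limma adjusted p = 3.93e-10). OR51B5, an olfactory receptor gene in the beta-globin locus of chromosome 11, rose by 1.99 (limma adjusted p = 1.31e-08), with 12 to 14 TPM in control, 72 to 76.7 TPM in KO1 and 35.3 to 38.6 TPM in KO2. HBE1 and HBG2, embryonic and fetal globin genes whose annotated bodies overlap it on the same strand, rose by 1.16 and 1.86 (limma adjusted p = 1.46e-05 and 9.57e-05). These overlapping genes cannot be separated in gene totals.

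On the lower side, ABCC2, an efflux pump for organic anions, was at 37.2, 37.4 and 37.5 TPM in control, 4.57, 5.05 and 4.48 TPM in KO1 and 3.57, 3.66 and 3.01 TPM in KO2. It fell by 3.23 log2 units (SE 0.0876, limma adjusted p = 6.93e-09). AREG, which encodes the EGF receptor ligand amphiregulin, was at 60.7, 68.0 and 57.3 TPM in control, 12.2, 12.6 and 7.33 TPM in KO1 and 13.0, 12.7 and 11.6 TPM in KO2, a fall of 2.44 (SE 0.154, limma adjusted p = 2.38e-06). The lysophospholipid exporter gene SPNS2 fell by 2.62 (SE 0.0878, limma adjusted p = 3.49e-08). TGFBI, a secreted matrix protein induced by TGF-beta, was at 45.7, 48.1 and 44.5 TPM in control, 11.2, 11.3 and 10.8 TPM in KO1 and 11.2, 13.1 and 9.96 TPM in KO2. In both clones it stood at about one level, with a fall of 2.04 (SE 0.0816, limma adjusted p = 1.10e-07). The zinc transporter gene SLC39A6 fell from 74.3 to 83.1 TPM to 24.0 to 26.6 TPM in KO1 and 22.6 to 25.8 TPM in KO2 (log2 fold change -1.66, limma adjusted p = 6.85e-08).

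CALB2, the calcium-binding protein calretinin, and CA9, the carbonic anhydrase induced by hypoxia, fell in both clones but not to the same level. CALB2 was at 184, 185 and 186 TPM in control, 23.5, 29.6 and 28.4 TPM in KO1 and 55.2, 58.1 and 51.7 TPM in KO2. CA9 was at 40.2, 49.7 and 45.8 TPM in control, 0.539, 0.266 and 0.523 TPM in KO1 and 12.9, 10.9 and 9.95 TPM in KO2. For 4 genes besides TGFBI and TRBC1 with a difference of at least 1, the clone means were especially close. They are SHISA4 (22.6, 10.1 and 10.2 TPM in control, KO1 and KO2), LANCL1 (46.3, 19.9 and 19.9 TPM), DMKN (23, 9.40 and 9.25 TPM) and the cell adhesion gene CADM4 (162, 69.7 and 67.7 TPM). All 4 fell by 1.15 to 1.31 on the log2 scale, with limma adjusted p of 2.06e-05, 2.55e-07, 2.42e-06 and 6.85e-08. They were picked for this closeness, which is therefore a description.

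**Figure D2:**
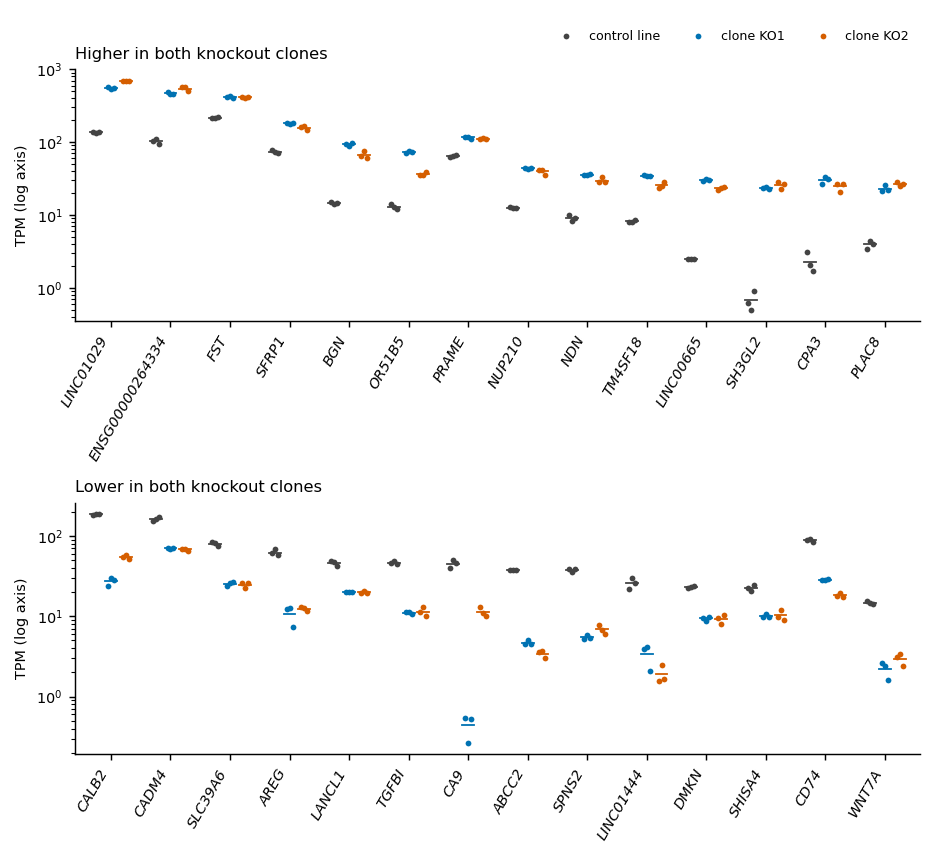
TPM on a log axis in each library (points) with the mean of each line (bars) for abundant genes that were higher (above) or lower (below) in both clones. TGFBI and CADM4 stand at about the same level in both clones, while CA9 and CALB2 are lower in KO1 than in KO2.

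Gene lists were then counted beside the background shares of 13.1% higher and 11.3% lower. The lists were chosen with earlier results of these data in view, and none was put to a set test. Integrin and cadherin genes, the receptors that hold cells to matrix and to each other, lay on the lower side only: 12 of 21 tested (57.1%) were below control in all 6 clone libraries and none was above. The 12 genes are ITGB7, ITGA7, ITGA10, ITGAX, ITGA2, ITGA6, ITGA5, ITGB1, ITGB4, CDH13, ITGB5 and ITGA4, and all 12 were called lower by limma. The calls of ITGA5, ITGA4 and ITGAX ended when the clones were fitted as one group (limma adjusted p = 0.099, 0.0828 and 0.0804). ITGB7 was at 2.22 to 3.02 TPM in control, 0.290 to 0.367 TPM in KO1 and 0.110 to 0.629 TPM in KO2. It fell by 3.26 log2 units (SE 0.482, limma adjusted p = 0.000648). ITGB1, the common beta chain of many integrins and the most abundant of the 12, was at 261 ± 6.2 TPM in control, 215 ± 10.9 in KO1 and 196 ± 7.57 in KO2 (SD, n = 3), a fall of 0.35 (limma adjusted p = 0.00011). ITGA6, a laminin receptor chain, fell by 0.45 and ITGA5, a fibronectin receptor chain, by 0.43 (limma adjusted p = 1.38e-05 and 0.000113). The median of the list was -0.31, and under median centring, quantile normalization, limma-voom and the subtraction of neighbouring genes 12 to 14 members were lower and none higher.

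Collagen and other matrix genes leaned the same way, with 16 of 35 lower (45.7%) and 5 higher (14.3%) and a median of -0.32. COL6A2 and COL6A1, chains of collagen VI, fell by 2.78 and 0.99 log2 units (limma adjusted p = 0.000193 and 0.000133). COL6A2 was at 2.03 to 2.59 TPM in control, 0.0903 to 0.241 TPM in KO1 and 0.605 to 0.900 TPM in KO2. The basement membrane genes COL4A1, HSPG2 (perlecan) and LAMC1 fell by 0.57, 0.60 and 0.32 (limma adjusted p = 0.00015, 0.000355 and 0.000108). The proteoglycan VCAN fell by 1.13 (limma adjusted p = 2.45e-05). The 5 higher members were BGN, COL8A1, NID1, LAMB2 and LUM, the last with 1 read in control and 57 and 26 in KO1 and KO2. Among matrix proteases and their inhibitors 11 of 33 were lower (33.3%) and 4 higher (12.1%). They include MMP3, which was at 15.7 to 17.5 TPM in control, 10.2 to 11.8 TPM in KO1 and 4.04 to 6.06 TPM in KO2, and the serine protease inhibitor gene SERPINE2, which fell by 0.62 (limma adjusted p = 7.2e-06). The sheddase genes ADAM9, ADAM15 and ADAM17 fell by 0.39, 0.29 and 0.24 (limma adjusted p = 1.15e-05, 0.000449 and 0.00939), and the call of ADAM15 ended in the one-group fit (limma adjusted p = 0.0618).

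Receptor tyrosine kinase genes were lower in 10 of 29 cases (34.5%) and higher in 3 (10.3%). ERBB3, the neuregulin receptor of the melanocyte lineage, was at 3.33 to 3.79 TPM in control, 0.630 to 0.952 TPM in KO1 and 0.789 to 1.12 TPM in KO2, and fell by 2.03 (limma adjusted p = 5.07e-05). The insulin receptor gene INSR fell by 1.10 and MET, the receptor of hepatocyte growth factor, by 0.31 (limma adjusted p = 0.00137 and 3.85e-05), the latter without a call in the one-group fit (limma adjusted p = 0.0703). NGFR, the low-affinity receptor of neurotrophins and a marker of an invasive melanoma state, was at 2.33 to 3.13 TPM in control, 0.676 to 1.08 TPM in KO1 and 0.447 to 1.12 TPM in KO2, and fell by 1.71 (limma adjusted p = 0.00187). The list of that invasive state had 8 of 29 members lower (27.6%) and 6 higher (20.7%), but 12 and 5 with median centring and 13 and 5 with limma-voom. Of 11 melanocyte lineage genes tested, 3 were lower, or 5 without control replicate C and 2 with median centring, and 2 were higher. The higher ones were RAB38, a GTPase of melanosome traffic, with a rise of 0.76, and the transcription factor gene PAX3, with a rise of 0.66 (limma adjusted p = 0.000185 and 0.000315).

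In the WNT pathway a ligand fell and an inhibitor rose. WNT7A was at 15.3, 14.6 and 14.3 TPM in control, 2.64, 2.43 and 1.63 TPM in KO1 and 3.13, 3.39 and 2.40 TPM in KO2, and fell by 2.54 log2 units (SE 0.170, limma adjusted p = 3.58e-06). SFRP1, a secreted antagonist that binds WNT ligands, was at 71.2 to 77.9 TPM in control, 180 to 185 TPM in KO1 and 146 to 165 TPM in KO2, and rose by 1.19 (SE 0.0446, limma adjusted p = 7.43e-08). The antagonist gene DKK1 and its relative DKK3 rose by 0.47 and 0.73 (limma adjusted p = 7.6e-06 and 0.000176). TCF7L2, a transcription factor of the pathway, rose by 0.82 (limma adjusted p = 9.75e-06). WNT5A and the receptor genes FZD2 and FZD6 fell by 0.50, 0.31 and 0.20 (limma adjusted p = 0.00245, 0.00128 and 0.034). In the one-group fit DKK3 and FZD6 were not called (limma adjusted p = 0.0545 and 0.0634). The list as a whole was even, with 5 of 29 higher and 5 lower (17.2% each), or 3 and 7 after subtraction of neighbouring genes. Among TGF-beta, activin and BMP genes 2 of 42 were higher and 2 lower (4.76% each), with 5 higher without control replicate A and 4 or 5 lower without control C, KO1 A or KO2 B. FST, the secreted activin antagonist follistatin, was one of the higher ones, at 215 to 219 TPM in control, 398 to 427 TPM in KO1 and 410 to 414 TPM in KO2 (log2 fold change 0.92, SE 0.0281, limma adjusted p = 1.58e-08). In axon guidance, 10 of 35 genes were lower and 8 higher, or 9 each with median centring and 11 and 6 with quantile normalization. The semaphorin and VEGF co-receptor gene NRP2 fell by 1.46 (limma adjusted p = 7.08e-06), and the ligand gene SLIT2 rose by 1.86 (limma adjusted p = 2.21e-05), from 0.911 to 1.28 TPM to 5.86 to 7.50 TPM in KO1 and 1.93 to 2.44 TPM in KO2.

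Cholesterol synthesis genes lay more often on the higher side, 7 of 24 (29.2%) against 2 lower (8.33%), with a median of 0.10. All 7 were called higher by limma, among them CYP51A1, LSS, MVK, DHCR7 and IDI1, and the 2 lower are FDFT1 and HSD17B7. CYP51A1, the lanosterol demethylase, was at 19.6, 21.2 and 18.4 TPM in control, 38.4, 41.1 and 42.5 TPM in KO1 and 45.4, 42.8 and 46.0 TPM in KO2. It rose by 1.11 log2 units (SE 0.0577, limma adjusted p = 5.99e-07). LSS, which makes lanosterol, rose by 0.54 (limma adjusted p = 4.75e-05). MVK, the mevalonate kinase gene, rose by 0.26 (limma adjusted p = 0.00594). IDI1 and HSD17B7 were not called in the one-group fit (limma adjusted p = 0.0584 and 0.0541). With median centring or limma-voom, 5 list members were higher and 2 lower, and after subtraction of neighbouring genes 5 and 1.

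Stress response genes, of the integrated and the unfolded protein responses, were higher in 9 of 35 cases (25.7%) and lower in 3 (8.57%), with a median of 0.11. With median centring or limma-voom, 6 were higher and 3 lower. SLC7A11, the cystine importer, was at 19.2 to 20.0 TPM in control, 30.2 to 31.2 TPM in KO1 and 27.9 to 29.0 TPM in KO2, and rose by 0.58 (limma adjusted p = 8.43e-06). The glutathione-degrading enzyme gene CHAC1 rose by 0.56, the stress sensor gene SESN2 by 0.55 and the transcription factor gene DDIT3 by 0.35 (limma adjusted p = 9.99e-05, 3.5e-05 and 0.00241). The chaperone genes HSP90B1 and PDIA4 fell by 0.17 and 0.26 (limma adjusted p = 0.00165 and 0.000231), and the kinase-like gene TRIB3, on chromosome 20, by 0.40 (limma adjusted p = 0.000105). TRIB3 changed sign, to 0.14, after subtraction of neighbouring genes (limma adjusted p = 0.0373). HSP90B1 and PDIA4 were not called in the one-group fit (limma adjusted p = 0.0978 and 0.0912). Interferon response genes were higher in 10 of 36 cases (27.8%) and lower in 2 (5.56%). IFIT3 was at 28.4, 28.0 and 25.2 TPM in control, 45.6, 46.0 and 47.8 TPM in KO1 and 41.0, 38.5 and 45.0 TPM in KO2, and rose by 0.69 (limma adjusted p = 2.11e-05). IRF1, a transcription factor gene of the response, rose by 0.68 (limma adjusted p = 0.000349), and the RNA editing enzyme gene ADAR by 0.26 (limma adjusted p = 0.000258). OAS1, a sensor of double-stranded RNA, was at 12.1 to 12.5 TPM in control, 10.7 to 11.7 TPM in KO1 and 4.02 to 5.42 TPM in KO2, and fell by 0.74 (limma adjusted p = 0.000325), and neither OAS1 nor ADAR was called in the one-group fit (limma adjusted p = 0.17 and 0.0682).

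Antigen presentation genes, some of which interferon also induces, were lower in 6 of 25 cases (24%) and higher in 1 (4%), MICB, or 2 without KO1 replicate B. CD74, the invariant chain of class II molecules, was at 89.8, 90.2 and 84.1 TPM in control, 28.4, 27.8 and 28.7 TPM in KO1 and 18.1, 19.6 and 17.6 TPM in KO2. It fell by 1.95 log2 units (SE 0.0482, limma adjusted p = 4.54e-09). The class I genes HLA-C and HLA-E, which belong to a family of close copies, fell by 0.55 and 0.40 (limma adjusted p = 6.72e-05 and 2.47e-05). The immunoproteasome subunit gene PSMB8 fell by 0.29 (limma adjusted p = 0.000343). MICB was not called in the one-group fit (limma adjusted p = 0.0774). The cancer testis antigen gene PRAME, by contrast, was at 63.0 to 65.8 TPM in control and 111 to 119 TPM in the clones and rose by 0.82 (limma adjusted p = 1.09e-07).

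**Figure D3:**
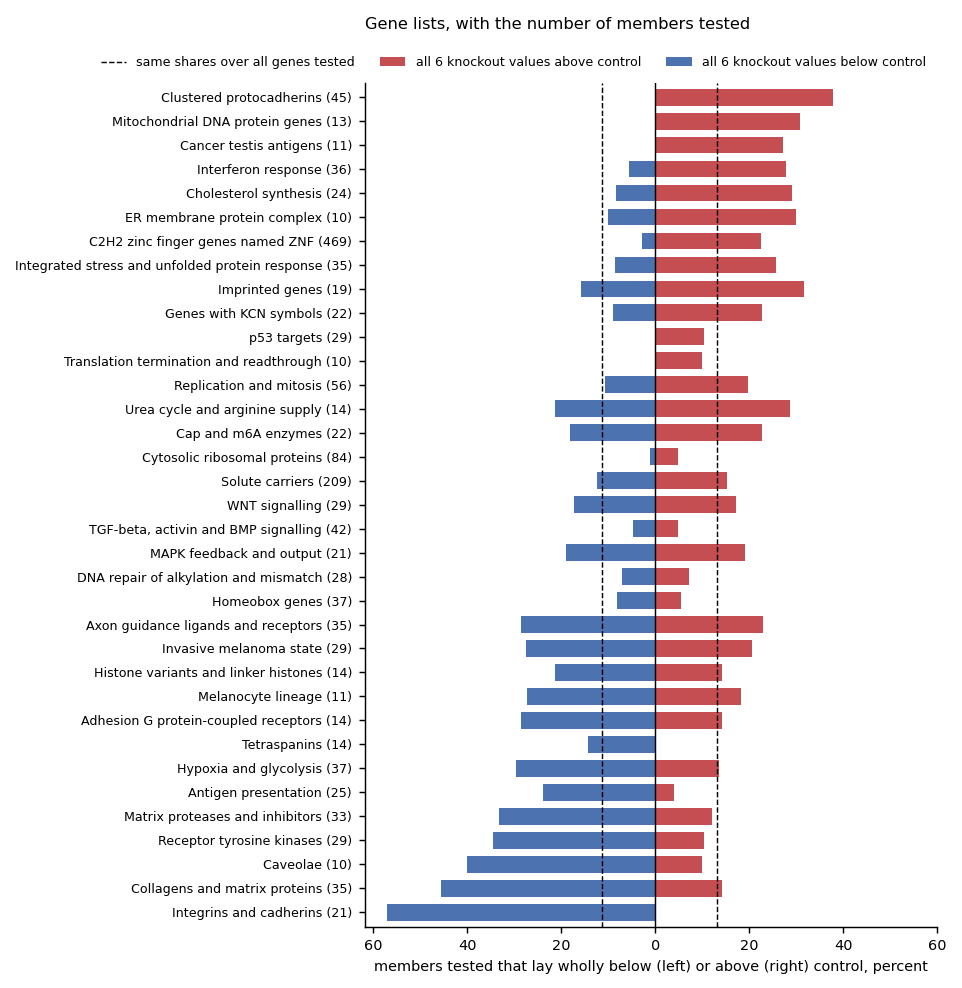
Share of tested members of each gene list with all 6 knockout values above (right) or below (left) the 3 control values, in percent, for 35 gene lists with at least 10 tested members (number in brackets). Dashed lines mark the shares over all genes tested, 13.1% higher and 11.3% lower, and the bars run from 57.1% lower for integrins and cadherins to 37.8% higher for clustered protocadherins.

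Clustered protocadherin genes, a tandem array of neuronal adhesion receptors on chromosome 5, lay on the higher side only: 17 of 45 tested (37.8%) were above control in all 6 clone libraries and none below. The 17 belong to the alpha and beta clusters: PCDHA2, PCDHA3, PCDHA6, PCDHA7, PCDHA8, PCDHA9, PCDHA10, PCDHA12, PCDHAC1, PCDHAC2, PCDHB5, PCDHB6, PCDHB7, PCDHB8, PCDHB9, PCDHB16 and the pseudogene PCDHB17P. PCDHB6 was at 2.01, 2.45 and 1.56 TPM in control, 18.0, 16.8 and 16.6 TPM in KO1 and 14.1, 12 and 13.2 TPM in KO2. It rose by 2.92 log2 units (SE 0.132, limma adjusted p = 2.71e-07). The list's median was 0.60 in KO1 and 0.08 in KO2, set side by side as both use the same control libraries. The genes share exons and sequence, so reads can be split between them and single values are uncertain. Members may therefore not be separate measurements, unlike most genes behind the background shares. After subtraction of a running median of 51 neighbouring genes, which for an array of this size is mostly made of its own members, 13 were higher and 1 lower with a median of 0.03. In that setting 7 of the 10 alpha members lost their call, and in the one-group fit PCDHA10, PCDHAC1 and PCDHB8 did (limma adjusted p = 0.053, 0.0501 and 0.0611).

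Zinc finger genes with ZNF symbols were higher in 106 of 469 cases (22.6%) and lower in 13 (2.77%), with a median of 0.17. Many such genes encode transcriptional repressors, and many lie in chromosome 19 clusters of close copies. ZNF844 was at 0.0146 to 0.0776 TPM in control, 3.15 to 3.66 TPM in KO1 and 2.25 to 3.17 TPM in KO2. With 2 control reads, the ratio of reads to control was 89.3 in KO1, with a 95% counting interval of 24.4 to 743, and 73.8 in KO2, with one of 20 to 615. Without control replicate A the list had 21 lower members and without control replicate C 22. After the running median of neighbours was subtracted, 61 were higher and 20 lower.

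Imprinted genes, which are expressed from one parental allele, were higher in 6 of 19 cases (31.6%) and lower in 3 (15.8%). Of the 6 higher, 4 lie in the Prader-Willi region of chromosome 15. MKRN3, another list member in that region, overlapped control and was not called by limma. NDN, which encodes the growth suppressor necdin, was at 10.1, 8.25 and 9.19 TPM in control, 35.6, 35.4 and 36.7 TPM in KO1 and 28.1, 32.7 and 28.3 TPM in KO2, and rose by 1.83 (SE 0.0755, limma adjusted p = 1.31e-07). SNRPN, a spliceosomal protein gene, was at 103 to 106 TPM in control, 169 to 187 TPM in KO1 and 216 to 223 TPM in KO2, and rose by 0.92 (limma adjusted p = 1.10e-07). SNURF, which shares its transcript, rose by 0.86 and the long host transcript SNHG14 by 1.0 (limma adjusted p = 4.14e-07 and 3.37e-07). These 3 overlap on the same strand and are not separate measurements. UBE3A, which lies opposite the end of SNHG14 and is imprinted only in neurons, had a log2 fold change of 0.18 (limma adjusted p = 0.0233), and its values overlapped control. It was not called in the one-group fit (limma adjusted p = 0.0949) and changed sign, to -0.026, after subtraction of neighbouring genes. PLAGL1, an imprinted zinc finger gene on chromosome 6, was at 4.41 to 5.22 TPM in control, 3.29 to 3.47 TPM in KO1 and 0.253 to 0.420 TPM in KO2, and its call ended when the clones were fitted as one group.

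The enzymes that act with or beside PCIF1 on mRNA showed small differences. Of 22 cap and m6A enzymes tested, 5 were higher (22.7%) and 4 lower (18.2%), with a median of 0.04. With limma-voom 2 were higher and 4 lower, and after subtraction of neighbouring genes 3 and 1, so this list had no stable direction. RNMT, which methylates the cap guanine, was at 134 to 140 TPM in control, 90.8 to 92.1 TPM in KO1 and 107 to 115 TPM in KO2, and fell by 0.44 log2 units (SE 0.0341, limma adjusted p = 9.55e-06). METTL4, another adenine methyltransferase, fell by 0.58 (limma adjusted p = 0.00115). Both lie on chromosome 18 and lost their call when the running median of neighbouring genes was subtracted, as did METTL5, RBM15B and NCBP2 below. CMTR2, which methylates the ribose of the second nucleotide after the cap, fell by 0.30 (limma adjusted p = 0.00702), and METTL5, a ribosomal RNA methyltransferase gene, by 0.26 (limma adjusted p = 0.0338). The cap-binding genes NCBP1 and NCBP2, the cap hypermethylase gene TGS1 and the m6A writer subunit gene RBM15B rose by 0.17, 0.11, 0.21 and 0.29 (limma adjusted p = 0.0118, 0.0372, 0.0107 and 0.00262). METTL5, NCBP1 and NCBP2 were not called in the one-group fit (limma adjusted p = 0.0605, 0.0591 and 0.111). CBLL1, another writer subunit gene, was above control in all 6 clone libraries but not called (limma adjusted p = 0.0528).

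**Figure D4:**
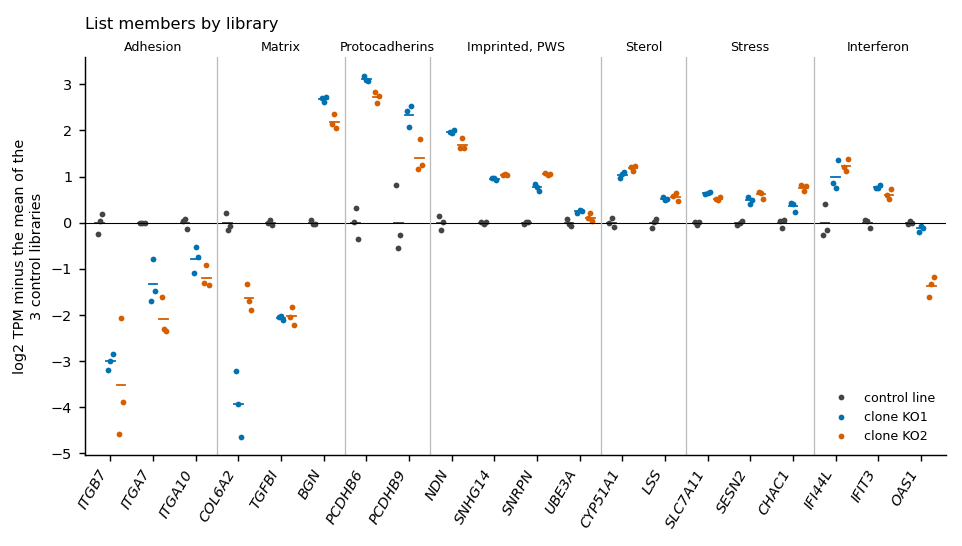
Log2 TPM of each library minus the mean of the 3 control libraries, for members of 7 gene groups, with points for libraries and bars for line means. The integrins shown lie below and the sterol, stress and protocadherin genes shown above the control libraries. BGN and OAS1 lie on the other side from the other members shown of their groups. Except for UBE3A, the genes shown passed the rule, so that they lie on one side of control follows from this choice. Other list members overlapped control, and the sterol gene FDFT1 and the stress gene TRIB3 lay below it.

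Hypoxia and glycolysis genes were lower in 11 of 37 cases (29.7%) and higher in 5 (13.5%), or 10 and 3 after subtraction of neighbouring genes, with NDRG1, a stress-induced gene, at 58.0 to 59.6 TPM in control and 30.8 to 35.0 TPM in the clones (log2 fold change -0.82, limma adjusted p = 1.14e-06). The secreted hormone gene STC2 rose by 0.76 (limma adjusted p = 3.49e-07). DOCK3, a Rac exchange factor, fell by 1.95, and the GTPase gene RHOB by 1.22 (limma adjusted p = 5.17e-06 and 0.000121). The RHOB call ended when the clones were fitted as one group. Mitochondrially encoded protein genes were higher in 4 of 13 cases (30.8%) and lower in none. The median of this list was 0.34 in KO1 and 0.02 in KO2. MT-CYB, the cytochrome b gene, was at 1576 to 1654 TPM in control, 2692 to 3238 TPM in KO1 and 1912 to 2056 TPM in KO2. Cytosolic ribosomal protein genes had 4 of 84 members higher (4.76%) and 1 lower (1.19%), both below the background shares, with 7 and 2 without control replicate A and 2 each with quantile normalization. Of the caveolae genes 4 of 10 were lower and 1 higher, CAVIN2, which was at 0.316 to 0.546 TPM in control, 9.93 to 11.3 TPM in KO1 and 59.2 to 61.2 TPM in KO2. In arginine metabolism, where ASS1 rose, the carbamoyl phosphate synthetase gene CPS1 was at 7.2 to 8.51 TPM in control, 3.23 to 3.78 TPM in KO1 and 3.5 to 4.38 TPM in KO2, and fell by 1.12 (limma adjusted p = 8.32e-05).

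Genes that passed were not spread evenly over the chromosomes. On chromosome 18, 70 of 240 genes tested were lower (29.2%), and on chromosome 20, where PCIF1 lies, 95 of 381 (24.9%). On chromosome 10, 118 of 539 were higher (21.9%), on chromosome 3, 164 of 802 (20.4%), on chromosome 2, 166 of 928 (17.9%), and of the mitochondrial genome 5 of 23 (21.7%). POTEC, CXADRP3, LINC01444, SLC39A6, METTL4 and RNMT are lower genes on chromosome 18, while LINC01029 and ENSG00000264334 on the same chromosome were higher. MGMT and TCF7L2 are on chromosome 10, and NUP210, CPA3 and TM4SF18 on chromosome 3. DNA copy number was not measured. After a running median of 51 neighbouring genes was subtracted, limma called 2174 genes higher and 2316 lower. Of the 161 genes named here that limma called, 14 then lost the call, and UBE3A and TRIB3 changed sign.

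**Figure D5:**
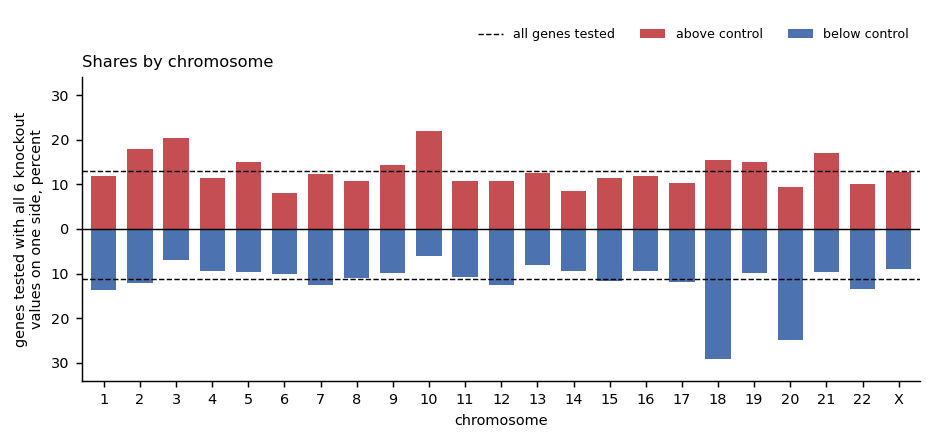
Share of the genes tested on each chromosome with all 6 knockout values above (up) or below (down) the 3 control values, in percent. Dashed lines mark the shares over all genes tested, and chromosomes 18 and 20 stand out on the lower side with 29.2% and 24.9%.

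The genes that passed also differed from the rest in plain properties. The median length of the canonical transcript was 3727 bases for the higher genes, 2753.5 for the lower genes and 2890 for all genes tested. Median GC content was 47.7%, 51.8% and 48.5%. The median control level was 18.5 TPM for the higher and 25.9 TPM for the lower genes, against 19.1 TPM for all. Control values entered the rule, so these medians are not independent of the choice of genes. Protein-coding genes made up 86.4% of the higher and 91.0% of the lower genes, against 83.5% of all. At the level limit, the genes just above a mean of 1 TPM were SHC4, lower in the clones, and ADAMTS4, higher, both with a mean of 1.0 TPM. Just below it were SPX, higher, with a mean of 0.993 TPM, and BTC, lower, with 0.996 TPM. In all, 88 genes under the limit lay above control in every clone library and 120 below.

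Other values bear on how these levels can be read. The summed level of the 4 tested endothelial markers was 68.8 to 72.6 TPM in control, 78.2 to 79.4 TPM in KO1 and 53.8 to 55.8 TPM in KO2, of the 3 epithelial markers 1065 to 1086, 949.8 to 989.8 and 853 to 929 TPM, and of the 4 Schwann cell markers 67.1 to 72.8, 61.1 to 70.0 and 50.4 to 55 TPM. The only fibroblast marker tested was LUM, at 0.0322 to 0.135, 1.89 to 2.67 and 0.787 to 1.43 TPM, and the only immune marker was CSF1R, at 1.14 to 1.27, 0.770 to 1.62 and 0.711 to 1.16 TPM. The part of other cells in the values was not tested. Some named genes overlap another annotated gene on the opposite strand, among them BGN, CA9, SPNS2, SPATA21, CYP51A1, IFIT3, ITGB7, ITGA7, ADAMTS4, SHC4, RNMT and UBE3A. The strand setting behind the gene totals is not known here, so reads of such partners cannot be told apart. In bulk samples, fewer cells that express a gene and less RNA per cell cannot be told apart.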

How the data were processed

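The authors deposited 1 table of log2 TPM for the 9 input RNA-seq libraries, and per the submitters' processing notes the tools included HISAT2 2.0.4, SAMtools 1.7, featureCounts and edgeR 3.12.1 with the hg38 genome, without a stated role, order or annotation. The values hold a small prior count, 0.215 to 0.319 reads per library, and whole reads could be recovered for 100% of genes (tolerance 1e-06 reads), 84602764 reads in all. A count of 0 over the 3 libraries of a line allows up to 3 reads, which set the lower bounds. Bounds and intervals cover counting error only. Symbols and coordinates came from GENCODE 44, which matched 15138 of 15258 identifiers.

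Genes averaging 1 TPM or more over the libraries were kept. A linear model of the 3 line means was fitted to the log2 TPM values with limma 3.58.1 (R 4.3.3, trended variance, 6 residual degrees of freedom), and the mean of KO1 and KO2 was tested against control with Benjamini-Hochberg adjustment and a threshold of 0.05. The fit was tested on simulated data. Alternatives were other pseudocounts, filters and scalings, no trend, the knockout libraries as one group, a replicate block, limma-voom on recovered reads, subtraction of a running median of 51 neighbouring genes, and leaving out each library.

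The genes, the 42 gene lists and the tests were chosen with earlier results of these data known, and some genes and 1 list are not reported here. Named were PCIF1 and, among genes past both criteria and ranked by the smaller clone difference, the 14 highest and 14 lowest, the 12 highest and 12 lowest at 20 TPM or more, the 6 with the closest clone means, up to 3 members per list, and the 2 genes on each side of 1 TPM. Members of the lists described in full and MITF, AXL, TRAC, FAM111A, CXADR, HBE1, HBG2, PAX3, SFRP1, STC2, DOCK3, RHOB, PLAGL1, SLIT2 and CAVIN2 were named after their values were seen. The same holds for MKRN3. The replicate letters were not used to pair the samples. Deviations of same-letter libraries correlated at -0.128 to 0.0352 and those of other letters at -0.190 to 0.206. With 3 libraries per line, this check cannot exclude a batch shared by letter.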

Additional observations from a re-analysis of the deposited data

Results flagged for a closer look

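Although both clones lay on one side of control, KO1 and KO2 differed from each other for many genes. Of the 3534 genes with all knockout values on one side of control, 922 (26.1%) differed between the clones at a limma adjusted p under 0.05, beside 4165 of all 14512 genes tested (28.7%). The genes below were marked because this test of KO2 against KO1 was passed, and each value is the log2 TPM of KO2 minus that of KO1.

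For genes higher in both clones, KO2 stood above KO1 by 2.48 for CAVIN2, 0.208 for ENSG00000264334, 0.327 for LINC01029, 0.298 for SNRPN, 0.314 for SNURF and 0.402 for CHAC1. KO2 stood nearer to control than KO1 for SLIT2 (-1.63), HBG2 (-1.15), OR51B5 (-1.02) and HBE1 (-0.977). The same held for MT-CYB (-0.563), PAX3 (-0.525), BGN (-0.496) and TM4SF18 (-0.442). Smaller differences of this kind were those of LINC00665 (-0.388), NDN (-0.277), STC2 (-0.267) and SFRP1 (-0.221).

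For genes lower in both clones, KO2 kept more of the control level for CA9 (4.73), CXADR (2.75), COL6A2 (2.3), RHOB (1.49) and CALB2 (1.02), and for DOCK3 (0.491), SPNS2 (0.331) and RNMT (0.295). KO2 lay further below control for PLAGL1 (-3.47), OAS1 (-1.25), MMP3 (-1.2), LINC01444 (-0.825), CD74 (-0.623), HLA-C (-0.562) and ABCC2 (-0.465). For 3 genes without a shared direction, the difference was 1.33 for PCIF1, 0.93 for MITF and -0.394 for FAM111A.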

How the results depend on the processing

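When the 6 knockout libraries were fitted as one group, so that the spread between clones enters the error, limma called 1425 genes higher and 1172 lower, and PCIF1 at -0.60 was no longer called (limma adjusted p = 0.284). In that fit 2461 of the 3534 genes were called, and of 161 genes named in the text with a call 136 kept it. With the replicate block, 2457 genes were called higher and 1923 lower, and the PCIF1 level stood at -0.60 with a limma adjusted p of 0.000642. Under the block METTL5, NCBP2, FZD6, IDI1 and ITGAX lost their calls. Leaving out 1 library gave 2010 to 2778 genes called higher and 1538 to 2197 lower, and PCIF1 at -0.63 to -0.54. Limma-voom gave 2573 and 3030, quantile normalization 2517 and 2440, and subtraction of neighbouring genes 2174 and 2316. Of the 166 genes named in the text with a value, 3 changed sign in any setting run: TRIB3 (0.14) and UBE3A (-0.026) after subtraction of neighbouring genes, and CSF1R, which was never called and ranged from -0.25 to 0.014 over the settings that leave out 1 library, without KO1 replicate C. After that subtraction LAMB2 was no longer called either. Calls with an adjusted p near the threshold, those of METTL5, NCBP2, FZD6, IDI1, HSD17B7 and ITGAX, also ended under 2 or more of the settings that leave out 1 library. ITGB4, NCBP1, MICB, TGS1, FAM111A and UBE3A lost theirs without control replicate B or C. List medians near 0 changed sign under some scalings for hypoxia and glycolysis, replication and mitosis, solute carriers and the ER membrane protein complex. The cause of these changes was not tested. The gene totals limit precision for genes under a few TPM, where a library holds few reads.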

Other observations

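Further gene groups were counted in the same way, without a test of the group. Genes with KCN symbols, mostly subunits and partners of potassium channels but also the noncoding RNAs KCNH1-IT1 and KCNJ5-AS1, were higher in 5 of 22 cases (22.7%) and lower in 2 (9.09%), with KCNJ8, a pore subunit of ATP-sensitive channels, at 1.81, 4.05 and 5.68 TPM in control, KO1 and KO2 (means, n = 3) and a rise of 1.4 log2 units (limma adjusted p = 0.0001). KCNG1, a modifier subunit, fell from 28.3 TPM to 15.2 and 14.8 TPM (limma adjusted p = 8.7e-05). Adhesion G protein-coupled receptor genes were higher in 2 of 14 cases (14.3%) and lower in 4 (28.6%), among them ADGRG1, which was at 27.0, 14.3 and 9.38 TPM. Cancer testis antigen genes were higher in 3 of 11 cases (27.3%) and lower in none, and homeobox genes were higher in 2 of 37 (5.41%) and lower in 3 (8.11%), or 1 and 4 with median centring. Genes of replication and mitosis were higher in 11 of 56 cases (19.6%) and lower in 6 (10.7%), or 11 lower without control replicate C and 10 against 9 with median centring or limma-voom. The replicative helicase gene MCM4 was at 250.2, 352 and 347 TPM in control, KO1 and KO2.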
